A study of Rattus norvegicus with 18 samples.

Results

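The genes described here are the Wnt ligands, their receptors and secreted antagonists, and the core of the pathway inside the cell. Members were the probe sets whose platform annotation gave exactly 1 gene symbol, with that symbol naming a Wnt, R-spondin (Rspo), Frizzled (Fzd), Sfrp, Dkk or Dishevelled (Dvl) gene or Wif1, Lrp5, Lrp6, Porcn, Wls, Apc, Axin1, Ctnnb1, Gsk3a, Gsk3b, Tcf7, Tcf7l1, Tcf7l2 or Lef1. The rule found 45 genes with 74 probe sets, of 14217 genes and 31042 probe sets on the array that were not controls. It used names only and no measured value.

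Each of 9 male Sprague Dawley rats (numbers 1 to 8 and 10, ages not in the labels) gave a proximal and a distal sample of colonic mucosa, which makes 18 Affymetrix rat arrays. Every rat had the same history: 10 days on modified AIN-93G diet, then the colon carcinogen azoxymethane (AOM) injected under the skin at 15 mg per kg, and death 6 h afterwards. No untreated rat was analysed here, so every comparison is between regions of treated animals. The series describes 10 rats allocated to 2 groups; the labels do not say which rat was in which group or how the groups differed, and rat 9 was not analysed here. The tissue was a mucosal scraping of a 4 cm length, which can carry stroma, vessels, leukocytes and muscle along with epithelium. In such bulk samples, fewer cells of a type and less RNA per cell cannot be told apart.

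Wnt proteins are secreted, lipid-modified ligands that bind a Frizzled receptor together with the co-receptor Lrp5 or Lrp6. Without ligand, a complex built on Apc and Axin1 holds β-catenin (Ctnnb1) for phosphorylation by Gsk3, which marks it for degradation. With ligand, Dishevelled recruits Axin1 to the receptor, β-catenin accumulates and acts in the nucleus with the factors Tcf7, Tcf7l1, Tcf7l2 and Lef1. In the colon this branch maintains stem cells at the crypt base, much of the ligand and R-spondin comes from stromal cells around the crypts, and loss of Apc or activation of β-catenin is a common step in colon tumours.

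Levels are given as the log2 of the MAS5 signal plus 16 after quantile normalization, and a difference is distal minus proximal on that scale. Such differences understate the change of dim probe sets, and the level of a probe set cannot be set against that of another. Errors after ± are standard errors moderated by limma, adjusted p-values are limma's with Benjamini-Hochberg adjustment over 21729 probe sets, and a probe set is called where that p is below 0.05. The fit took the arrays of a rat as independent. Member calls that changed with rat as a block are given with their probe set. Of the 74 probe sets, 42 of 31 genes were bright enough to be tested, and 32 lay among the dimmest 30% of the array. For 14 genes no probe set was tested: Rspo1, Rspo3, Wnt4, Wnt5a, Wnt5b, Wnt8b, Wnt10a, Wnt11, Wnt16, Fzd3, Dkk2, Sfrp4, Wif1 and Dvl2. In the gene lists below, a gene counts as measured where a probe set of it was tested. A gene that is not measured may still be on the array.

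The labelled tissue was borne out by its markers. All 11 epithelial markers were measured, and their mean level lay between 12.67 and 12.97 in the proximal arrays and between 12.75 and 12.88 in the distal arrays. Within that list limma called Tff3 as higher in distal colon and Krt20, Vil1 and Muc2 as higher in proximal colon. Smooth muscle markers set 3 arrays apart: their mean level over 10 genes was 12.10 in proximal rat 3, 9.74 in distal rat 3 and 9.69 in distal rat 7, against 6.37 to 8.51 in the other 15 arrays. The same 3 arrays had the highest mean level of 11 fibroblast markers, at 10.68, 9.59 and 9.92. No gene of the smooth muscle, fibroblast, endothelial (7 of 8 measured) or enteric neuron and glia (4 of 10 measured) lists was called in either direction. This does not show equal levels: the median differences of these lists were -0.40, -0.49, -0.23 and -0.25. Apart from Des, Lmod1 and Pecam1, each measured gene of these lists had a higher mean in proximal colon. These means include proximal rat 3, which had the highest level of each list (12.10, 10.68, 8.07 and 7.81). The median array lay at 7.56, 8.15, 6.65 and 6.05 in proximal and at 7.35, 7.26, 6.35 and 5.98 in distal colon. How much of the differences came from proximal rat 3 was not tested. Of 7 measured leukocyte markers, Cd14 was called as higher in distal colon, and the mean of the 7 ranged from 6.89 to 9.17 in proximal and from 7.40 to 9.13 in distal arrays. Neither Tff3 nor Cd14 was called under the deposited scaling (adjusted p = 0.119 and 0.105 by limma).

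Between the regions, 7 of the 42 tested probe sets were called as higher in distal colon (16.7%) and 4 as higher in proximal colon (9.52%). Among all 21729 tested probe sets the shares were 14.3% and 12.2%, so the members' shares lay near the background. With the deposited scaling kept in place of quantile normalization, 3 members were called as higher in distal and 4 as higher in proximal colon, beside background shares of 3.63% and 12.1%. The median difference of the tested members was 0.07, against 0.03 over all tested probe sets, a median that the deposited scaling placed at -0.09. The probe sets called as higher in distal colon were those of Wnt1, Wnt2, Fzd1, Sfrp2 (both probe sets) and Dvl1 (2 probe sets), and those called as higher in proximal colon were of Lrp5 (both probe sets), Sfrp5 and Ctnnb1 (1 of 3 tested). The calls thus fell on single genes in both directions, and no role in the pathway had all of its tested genes called one way. The ranges of the regions did not overlap for Sfrp2 probe set 1390119_at and Dvl1 probe set 1369997_at. The share of all tested probe sets without overlap is not given here, so this is no trait of the members as a set.

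**Figure D1:**
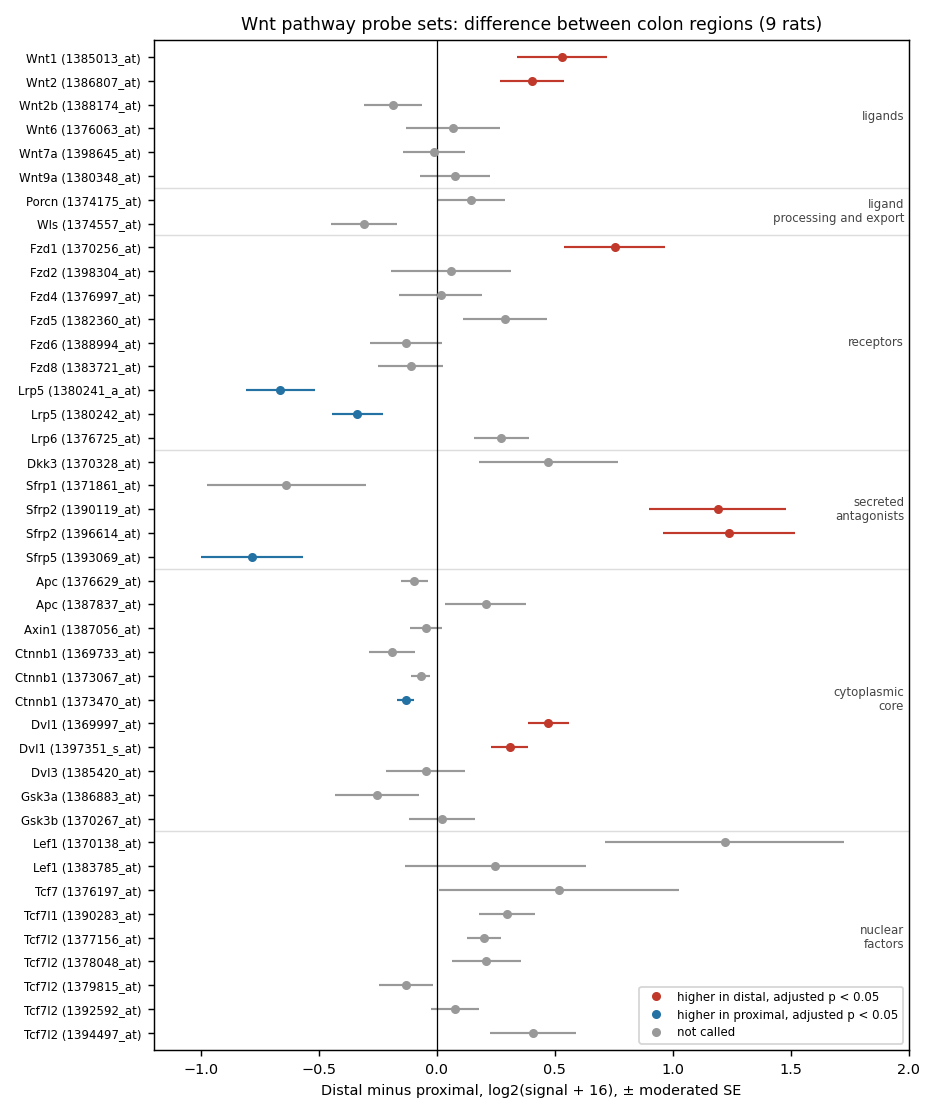
Difference between distal and proximal colon (log2 scale, distal minus proximal) for the 42 tested Wnt pathway probe sets, grouped by role, with moderated standard errors as bars and 9 rats per region. Red points are the 7 probe sets called as higher in distal colon, blue points the 4 called as higher in proximal colon and grey points the 31 not called; the antagonist Sfrp2 has the largest called difference in distal direction and Sfrp5 in proximal direction.

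Of the 15 ligand genes, 6 were tested, and Wnt1 and Wnt2 were called as higher in distal colon. Wnt1, a ligand best known from the midbrain, lay at 6.06 in the lowest, 6.91 in the median and 7.41 in the highest proximal array, and at 6.45, 7.44 and 7.79 in the distal arrays. The ranges overlapped widely, and 8 of 9 rats were higher in the distal array. Its difference was 0.53 ± 0.19 (1.44-fold, adjusted p = 0.0465 by limma). The call was close to the threshold: it was lost on leaving out rat 1, 3, 5, 6, 8 or 10 (adjusted p from 0.0566 to 0.125) and with the deposited scaling (adjusted p = 0.188). It was also lost without the proximal arrays of rats 3 and 6 (0.0925), without the 3 arrays that were high in smooth muscle markers (0.0548), with no filter (0.0632) and, barely, with a pseudocount of 1.

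Wnt2, a ligand that stromal cells express, lay at 5.44, 5.76 and 6.10 (lowest, median and highest) in the proximal and at 5.53, 6.23 and 6.42 in the distal arrays. It was higher in the distal array of 8 of 9 rats, the exception being rat 2, whose distal array was the lowest of its region. The difference was 0.40 ± 0.14 (1.32-fold, adjusted p = 0.0339 by limma). Leaving out rat 1, 3, 6, 7 or 8 ended the call (adjusted p from 0.0535 to 0.103), and so did the deposited scaling (adjusted p = 0.320), leaving out the proximal arrays of rats 3 and 6 (0.0725) or leaving out the 3 arrays of high smooth muscle markers (0.0525). The other Wnt2 probe set was too dim to be tested and differed by 0.03 between the regions.

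Wnt2b, a ligand that supports intestinal stem cells, lay at 6.37, 7.01 and 7.30 in proximal and 6.39, 6.60 and 6.90 in distal arrays. Its difference of -0.19 ± 0.12 was not called (adjusted p = 0.286 by limma), although 7 of 9 rats were higher in the proximal array. The remaining tested ligands, Wnt6, Wnt7a and Wnt9a, differed by 0.07, -0.01 and 0.08.

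The dim ligand probe sets were not tested, and their values are a description. Wnt5a, a ligand that mostly acts through the β-catenin-independent branches, lay at 4.47, 5.22 and 5.65 in proximal and 4.32, 4.61 and 5.78 in distal arrays, with 7 of 9 rats higher in the proximal array. Rspo3, the R-spondin that stromal cells below the crypts make, lay at 4.61, 5.40 and 5.97 in proximal and 4.71, 5.48 and 6.02 in distal arrays for the brighter of its probe sets, so that the regions covered the same range. Wnt4, another ligand, stood out by array rather than by region: distal rats 3 and 7 read 7.68 and 7.71 while the other 7 distal arrays read 4.20 to 5.44, and proximal rat 3 read 6.49 while the other 8 proximal arrays read 4.47 to 6.02. Those are the 3 arrays with the high smooth muscle markers.

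Ligand release requires Porcn, which attaches the lipid, and Wls, which carries the ligand to the cell surface. Wls lay at 7.54, 7.72 and 8.79 in proximal and at 7.14, 7.56 and 7.68 in distal arrays. Its difference of -0.31 ± 0.14 was not called (adjusted p = 0.113 by limma), and the highest value was again that of proximal rat 3. Porcn differed by 0.15 ± 0.14 and was not called either (adjusted p = 0.495 by limma).

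Among the receptors, Fzd1 and Lrp5 were called in opposite directions. Fzd1, a Frizzled that signals through β-catenin, lay at 7.77, 8.14 and 8.83 (lowest, median and highest) in proximal and at 7.58, 9.19 and 9.55 in distal arrays. Most distal arrays lay above all proximal ones, but distal rat 10 was the lowest of all 18 and rat 5 was also higher in the proximal array, leaving 7 of 9 rats higher in the distal array. The difference was 0.75 ± 0.22 (1.68-fold, adjusted p = 0.0133 by limma). It was called on leaving out any rat and missed the threshold with the deposited scaling (0.67, adjusted p = 0.0666).

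Lrp5, the co-receptor, read lower in distal colon with both of its probe sets. Probe set 1380241_a_at lay at 7.43, 7.99 and 8.18 in proximal and at 6.67, 7.30 and 7.65 in distal arrays, and every rat was higher in the proximal array. The difference was -0.66 ± 0.15 (1.58-fold higher in proximal colon, adjusted p = 0.00208 by limma), and it was called under each of the 17 alternative settings. Probe set 1380242_at differed less, by -0.34 ± 0.11 (1.26-fold, adjusted p = 0.0250 by limma), with 8 of 9 rats higher in the proximal array. Its call was lost without rat 4 (adjusted p = 0.0574), rat 5 (0.0622) or rat 10 (0.0807).

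Lrp6, the co-receptor that acts alongside Lrp5, lay at 8.48, 8.87 and 9.16 in proximal and 8.74, 9.13 and 9.62 in distal arrays, that is, in the opposite direction to Lrp5 in 8 of 9 rats. Its difference of 0.27 ± 0.12 was not called without a block (adjusted p = 0.0932 by limma) but was with rat as a block (adjusted p = 0.00822). The difference between the changes of the co-receptors was not tested. The other Frizzled genes measured were not called: Fzd5 differed by 0.29, Fzd2 by 0.06, Fzd4 by 0.02, Fzd8 by -0.11 and Fzd6 by -0.13. A further Fzd4 probe set, 1369468_at, was too dim to be tested and read otherwise. It lay at 5.00, 5.32 and 5.88 in proximal and at 4.37, 4.84 and 5.49 in distal arrays. Its difference was -0.48, with 7 of 9 rats higher in the proximal array (adjusted p = 0.0510 by limma with no filter).

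**Figure D2:**
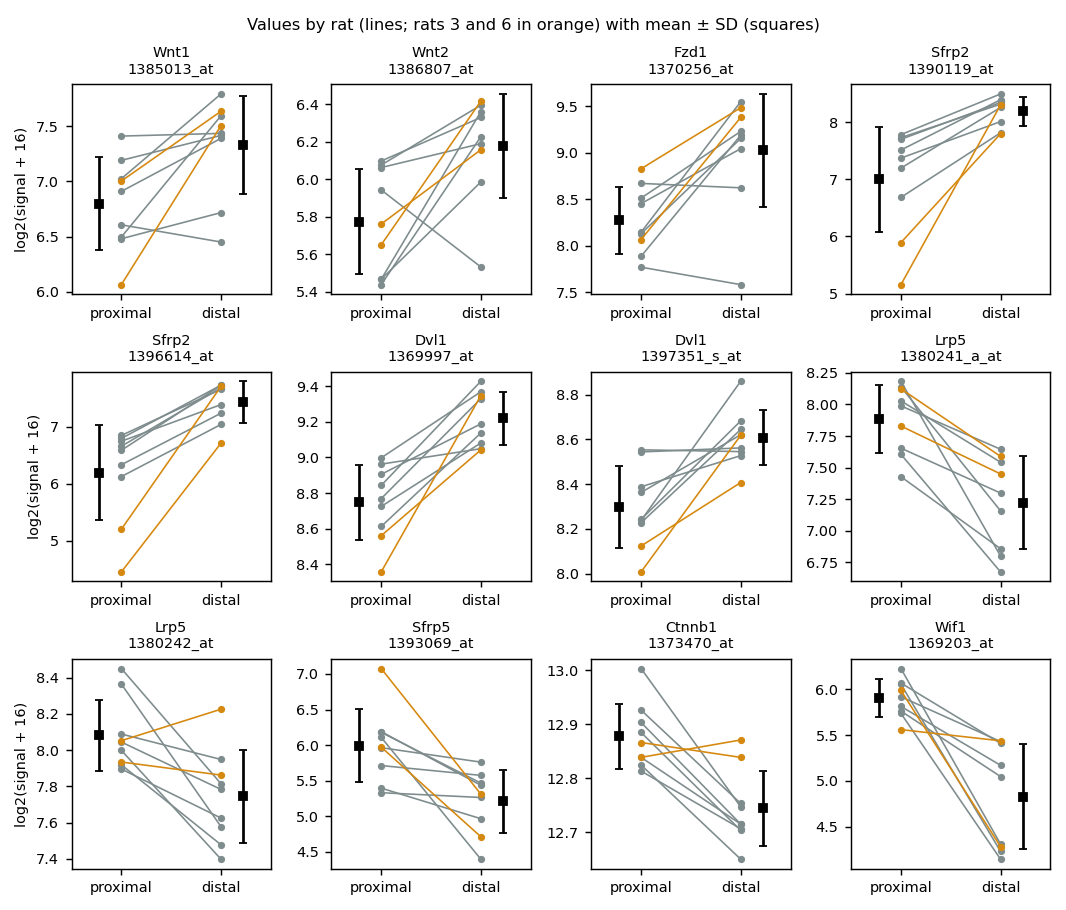
Level (log2 of signal plus 16) of 12 probe sets in the proximal and distal array of each rat, joined by a line, with rats 3 and 6 in orange and squares with bars for the mean ± SD of 9 rats. In every rat Sfrp2 and Dvl1 (1369997_at) are higher in the distal array and Lrp5 (1380241_a_at), Sfrp5 and the untested Wif1 in the proximal array, while the lines of Wnt1, Wnt2 and Fzd1 cross.

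The secreted antagonists held the largest called differences, in both directions. Sfrp2, a Frizzled-related protein that binds Wnt ligands outside the cell, was higher in the distal array of every rat with both probe sets. Probe set 1390119_at lay at 5.16, 7.37 and 7.78 in proximal and at 7.80, 8.30 and 8.49 in distal arrays, without overlap. The difference was 1.19 ± 0.29 (2.28-fold, adjusted p = 0.00467 by limma). Probe set 1396614_at lay at 4.45, 6.58 and 6.84 in proximal and at 6.71, 7.65 and 7.73 in distal arrays, so that only the lowest distal array, of rat 3, fell among the proximal values. Its difference was 1.24 ± 0.28 (2.36-fold, adjusted p = 0.00242 by limma), and both probe sets were called under each of the 17 alternative settings.

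The proximal arrays of rats 3 and 6 were low in Sfrp2 beyond the other proximal arrays. They read 5.89 and 5.16 on probe set 1390119_at, where the other 7 read 6.68 to 7.78, and 4.45 and 5.20 on probe set 1396614_at, where the other 7 read 6.12 to 6.84. Without these 2 arrays the differences were 0.77 and 0.85, with adjusted p-values of 0.000947 and 0.00055 by limma. These arrays were both below all other proximal arrays in 6 of the 42 tested members (14.3%), beside 13.3% of all tested probe sets: both probe sets of Sfrp2, both of Dvl1, Gsk3a and a probe set of Apc.

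Sfrp5, a relative of Sfrp2, went the other way. It lay at 5.33, 5.97 and 7.08 in proximal and at 4.39, 5.31 and 5.76 in distal arrays, with overlapping ranges but every rat higher in the proximal array. The difference was -0.78 ± 0.22 (1.72-fold higher in proximal colon, adjusted p = 0.0107 by limma), called under each of the 16 alternative settings in which it was bright enough to be tested. Its distal mean of 5.21 lay below the filter level of 5.54, so it was tested through its proximal level and the size of the fold is uncertain. The highest value, 7.08, was that of proximal rat 3, where the next proximal array read 6.19.

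Wif1, which binds Wnt ligands through a domain unrelated to the Frizzled-related proteins, was too dim for the test. It lay at 5.56, 5.92 and 6.23 in proximal and at 4.14, 5.05 and 5.44 in distal arrays, without overlap and with every rat higher in the proximal array. The difference was -1.08 on this scale. Its size depends on the added 16, since the distal arrays of rats 2, 4, 6 and 7 read 4.14 to 4.31, close to the lowest value that this constant allows. With no filter on dim probe sets limma gave an adjusted p of 0.000514. Of the 32 dim member probe sets, the same fit called 3: Wif1 as higher in proximal colon, and a further probe set each of Apc (0.50, adjusted p = 0.0192) and Tcf7l1 (0.41, adjusted p = 0.0176) as higher in distal colon. The share of all dim probe sets called in that fit is not given here, so the count stands without a background.

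Sfrp1 and Dkk3 followed the 3 arrays with high smooth muscle markers. Sfrp1, another Frizzled-related protein, lay at 6.32, 7.10 and 8.73 in proximal and at 5.84, 6.13 and 8.31 in distal arrays. The high ends were proximal rat 3 at 8.73, distal rat 7 at 8.31 and distal rat 3 at 7.77, where the other distal arrays reached 6.62 at most. Its difference of -0.64 ± 0.34 was not called (adjusted p = 0.174 by limma), with 8 of 9 rats higher in the proximal array. Without the 3 arrays the difference was -0.86 (adjusted p = 0.00135 by limma), and without rat 7 alone it was also called (adjusted p = 0.0483).

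Dkk3, a member of the Dickkopf family, lay at 6.28, 6.95 and 9.50 in proximal and at 7.34, 7.68 and 8.30 in distal arrays. Proximal rat 3 read 9.50 and the other 8 proximal arrays 6.28 to 7.52. The difference of 0.47 ± 0.30 was not called (adjusted p = 0.260 by limma), although 8 of 9 rats were higher in the distal array. Without rat 3 it was 0.68 (adjusted p = 0.00228 by limma), and without the 3 arrays the adjusted p was 0.00483. The further Dkk3 probe sets were too dim to be tested and had the opposite sign (-0.27, -0.02 and -0.15). Over all members, 6 of 74 probe sets (8.11%) had each of the 3 arrays above all others of its region, beside 3.75% of all probe sets: Wnt4, Wnt5a, Fzd1, Dkk3 and a pair of Sfrp1. The part of muscle or stromal RNA in these values was not tested beyond the fits without those arrays.

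**Figure D3:**
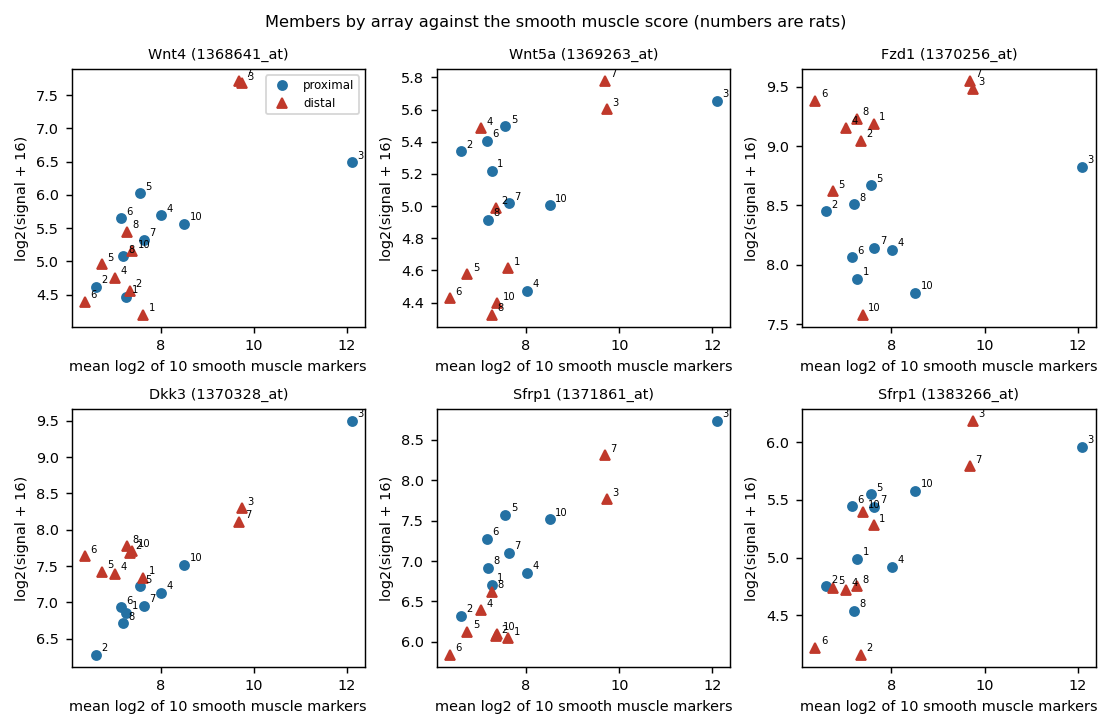
Level (log2 of signal plus 16) of the 6 member probe sets in which proximal rat 3, distal rat 3 and distal rat 7 each lay above all other arrays of their region, plotted for all 18 arrays against the mean level of 10 smooth muscle markers. Circles are proximal and triangles distal arrays, numbered by rat; the 3 arrays lie at 12.10, 9.74 and 9.69 on the horizontal axis and the others between 6.37 and 8.51.

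The reference table of promoters (RefSeq, assembly GRCr8) held 35 windows for 34 of the 45 genes. Some of these, among them those of Ctnnb1, Dvl1 and Wif1, do not end at the annotated start of the gene. The windows of Sfrp2, Fzd1 and Sfrp5 do. The 250 bases upstream of the start are shown for 3 members called between the regions, Sfrp2 and Fzd1 (higher in distal colon) and Sfrp5 (higher in proximal colon), so that the stretch next to the start can be read beside the values. They were searched on both strands for the Tcf/Lef core motifs CTTTGA and CTTTGT (reverse TCAAAG and ACAAAG), for the GC box GGGCGG (reverse CCGCCC) and for TATAAA (reverse TTTATA). Capitals mark a match.

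Sfrp2, chr2:171387286-171387535, plus strand: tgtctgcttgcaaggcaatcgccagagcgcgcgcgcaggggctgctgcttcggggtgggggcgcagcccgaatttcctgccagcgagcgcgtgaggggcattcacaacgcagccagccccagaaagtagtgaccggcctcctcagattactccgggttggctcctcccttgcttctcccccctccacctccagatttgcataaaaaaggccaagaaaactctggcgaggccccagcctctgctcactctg
Fzd1, chr4:30264824-30265073, plus strand: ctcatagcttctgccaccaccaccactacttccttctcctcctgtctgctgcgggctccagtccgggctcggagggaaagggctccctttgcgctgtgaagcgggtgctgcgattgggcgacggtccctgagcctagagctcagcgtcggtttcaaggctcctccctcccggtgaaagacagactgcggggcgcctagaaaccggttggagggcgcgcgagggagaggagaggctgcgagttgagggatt
Sfrp5, chr1:250960513-250960762, minus strand: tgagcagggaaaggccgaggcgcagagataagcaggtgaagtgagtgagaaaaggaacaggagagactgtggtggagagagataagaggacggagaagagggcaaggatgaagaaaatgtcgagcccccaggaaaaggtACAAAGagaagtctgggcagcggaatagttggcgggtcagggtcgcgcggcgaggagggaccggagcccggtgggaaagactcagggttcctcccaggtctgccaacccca

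Sfrp5 had 1 match, ACAAAG, whose first base lies 111 bases before the start, and neither Sfrp2 nor Fzd1 had any. The windows had a GC content of 62.4% (Sfrp2), 63.6% (Fzd1) and 58.0% (Sfrp5). Over the 35 member windows, CTTTGA was present in 1 (2.86%), CTTTGT in 4 (11.4%), GGGCGG in 22 (62.9%) and TATAAA in none. Among all 33469 windows of the table the shares were 13.9%, 16.3%, 30.5% and 12.9%. A match is a string of letters and not a known site, and its absence says only that these letters are not in this window.

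In the cytoplasm, Dvl1 and Ctnnb1 were called. Dvl1, which relays the signal from the receptor to the Axin1 complex, lay at 8.36, 8.77 and 8.998 in proximal and at 9.04, 9.19 and 9.43 in distal arrays on probe set 1369997_at. The regions did not overlap and every rat was higher in the distal array. The difference was 0.47 ± 0.09 (1.39-fold, adjusted p = 0.000408 by limma), called under each of the 17 alternative settings, with an adjusted p of 0.0415 under the deposited scaling. Probe set 1397351_s_at differed by 0.31 ± 0.08 (1.24-fold, adjusted p = 0.00624 by limma) and was not called under the deposited scaling (0.22, adjusted p = 0.236). The ending _s_at marks a probe set that can match more than 1 transcript, so this value may hold signal of other transcripts. Dvl3 differed by -0.05 and was not called, and Dvl2 was too dim to be tested.

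Ctnnb1, which encodes β-catenin, was the member with the smallest called difference. Probe set 1373470_at lay at 12.81, 12.87 and 13.00 in proximal and at 12.65, 12.71 and 12.87 in distal arrays, a difference of -0.13 ± 0.03 (1.10-fold higher in proximal colon, adjusted p = 0.00692 by limma) with 8 of 9 rats in that direction. The other tested probe sets of the gene had the same sign and were not called. Probe set 1373067_at lay at 12.95, 13.03 and 13.22 in proximal and 12.84, 13.00 and 13.10 in distal arrays (difference -0.07 ± 0.04, adjusted p = 0.230 by limma). Probe set 1369733_at lay at 9.67, 9.91 and 10.18 in proximal and 9.20, 9.75 and 9.98 in distal arrays (difference -0.19 ± 0.10, adjusted p = 0.158 by limma, and 0.0350 with rat as a block).

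Apc, the scaffold that holds β-catenin for degradation, had tested probe sets of opposite sign, neither of them called. Probe set 1376629_at lay at 9.68, 9.82 and 9.98 in proximal and 9.58, 9.77 and 9.92 in distal arrays (difference -0.10 ± 0.06, adjusted p = 0.236 by limma). Probe set 1387837_at lay at 6.62, 7.29 and 7.50 in proximal and 6.20, 7.44 and 7.90 in distal arrays (difference 0.21 ± 0.17, adjusted p = 0.418 by limma). The low distal value was that of rat 3, and without this rat the second probe set was called as higher in distal colon (adjusted p = 0.0370). The other parts of the complex were not called: Axin1 differed by -0.05, the kinase Gsk3a by -0.26 and Gsk3b by 0.02.

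None of the 9 tested probe sets of the nuclear factors was called. Tcf7l2, the main partner of β-catenin in intestinal epithelium, had 5, and they disagreed in sign. The brightest, 1377156_at, lay at 10.91, 11.05 and 11.15 in proximal and at 10.87, 11.30 and 11.48 in distal arrays, and 7 of 9 rats were higher in the distal array. Its difference of 0.20 ± 0.07 just missed the threshold (adjusted p = 0.0512 by limma). It was called with rat as a block (adjusted p = 0.0305) and without rat 4 (0.0184) or rat 8 (0.0212).

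Probe set 1394497_at of Tcf7l2 lay at 6.14, 6.88 and 7.49 in proximal and at 6.76, 7.56 and 7.87 in distal arrays (difference 0.41 ± 0.18, adjusted p = 0.109 by limma). Probe set 1378048_at lay at 7.15, 7.93 and 8.34 in proximal and at 7.75, 7.94 and 8.60 in distal arrays, a difference of 0.21. Probe set 1392592_at lay at 7.99, 8.37 and 8.54 in proximal and at 8.04, 8.39 and 8.65 in distal arrays, a difference of 0.08. Probe set 1379815_at had the opposite sign: it lay at 8.35, 9.05 and 9.15 in proximal and at 8.35, 8.80 and 9.19 in distal arrays, a difference of -0.13. Which transcripts of the gene each probe set detects was not examined.

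Tcf7l1, a factor that often represses Wnt targets, lay at 6.40, 6.73 and 7.56 in proximal and at 6.84, 7.07 and 7.19 in distal arrays. Its difference of 0.30 ± 0.12 was not called (adjusted p = 0.0737 by limma), and the highest value was that of proximal rat 3. Without rat 3 it was called as higher in distal colon (adjusted p = 0.00226), and also without the 3 arrays with high smooth muscle markers (adjusted p = 0.00408).

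Tcf7 and Lef1, the factors known for their roles in T lymphocytes, varied widely between rats. Tcf7 lay at 6.78, 7.84 and 10.09 in proximal and at 7.47, 8.69 and 10.64 in distal arrays, and its difference of 0.52 ± 0.51 was not called (adjusted p = 0.497 by limma). Lef1 lay at 4.20, 5.75 and 7.70 in proximal and at 5.68, 6.37 and 8.58 in distal arrays on probe set 1370138_at (difference 1.22 ± 0.51, adjusted p = 0.0830 by limma, and 0.0480 without rat 6). On probe set 1383785_at it lay at 6.32, 6.81 and 8.59 in proximal and at 6.53, 6.97 and 8.89 in distal arrays (difference 0.25 ± 0.38, adjusted p = 0.680 by limma). Rat 10 was the highest rat in both regions with all 3 probe sets.

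These values moved with the mean of the leukocyte markers across arrays. Ptprc, Cd3e, Cd3d and Cd79b varied most in proximal arrays (SD 1.11 to 2.13) and, like Tcf7, were each highest in proximal rat 10. The other markers had other orders. In proximal arrays Cd14 read 11.15 in rat 10 and 11.87 in rat 8, where Tcf7 was lowest. Cd68 and Csf1r were highest in proximal rat 3 (7.56 and 8.64), where Tcf7 read 7.65. Within the 9 proximal arrays, Tcf7 and the mean level of the 7 leukocyte markers had a Pearson r of 0.990 and a Spearman rho of 1 (exact permutation tests, p = 2.76e-06, the smallest that 362880 pairings can give, and p = 5.51e-06). Within the 9 distal arrays r was 0.954 and rho 0.883 (exact permutation tests, p = 0.000118 and p = 0.00308). For the Lef1 probe sets r lay at 0.983 and 0.933 in proximal and at 0.925 and 0.911 in distal arrays, with rho from 0.900 to 0.967. Leaving out rats 6 and 10, the farthest from the median of the markers in either region, r over all of these lay between 0.859 and 0.979. These were 6 relations, chosen after the values were seen, and the largest adjusted p over them was 0.000758 for r and 0.00308 for rho by exact permutation. The arrays share their labelling and normalization, and the part of leukocyte RNA in the levels of Tcf7 and Lef1 was not tested further.

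**Figure D4:**
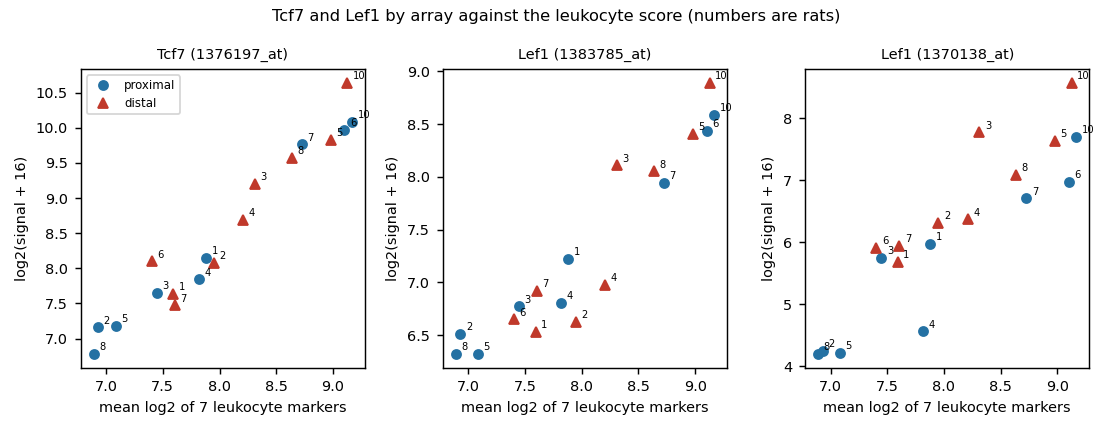
Level (log2 of signal plus 16) of Tcf7 and of the pair of Lef1 probe sets in all 18 arrays against the mean level of 7 leukocyte markers, with circles for proximal and triangles for distal arrays, numbered by rat. Tcf7 rises with this mean in both regions (r = 0.990 in proximal and 0.954 in distal arrays), and the arrays of rat 10 lie at the upper right in every panel.

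Of 102 further pathway genes outside the name rule, 83 were measured. By limma 15 were called as higher in distal and 16 as higher in proximal colon, beside 16.2% and 14.5% of all 11407 tested genes. With the deposited scaling the counts were 6 and 15, beside 3.95% and 13.6%. Without rat 8 the count higher in proximal colon was 10, with no share over all genes given for that fit. Their median difference was 0.02. By group, co-receptors and surface regulators had 3 called as higher in distal and 2 as higher in proximal colon of 7 measured. The counts were 2 and 2 of 7 for other extracellular modulators and 3 and 2 of 8 for planar polarity genes. They were 2 and 2 of 19 for cytoplasmic genes and 3 and 5 of 21 for nuclear genes. The last group had 2 and 3 of 21. It held genes of the calcium branch together with Rac1, Rhoa, Rock1, Rock2, Mapk8 and Mapk9. Every group thus had calls in both directions.

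Lgr5, the R-spondin receptor that marks crypt stem cells, had the largest called difference in distal direction among the probe sets that stand for each gene. It lay at 5.90, 6.39 and 6.81 in proximal and at 6.81, 7.32 and 7.60 in distal arrays, and every rat was higher in the distal array (0.90 ± 0.15, 1.86-fold, adjusted p = 0.000138 by limma). Next were Vangl2, a core planar polarity protein (0.78, 1.72-fold, and 1.10 on its other tested probe set, which is above the value of Lgr5), Lrp4, a relative of Lrp5 (0.71, 1.64-fold), and Gpc4, a cell-surface heparan sulphate proteoglycan (0.69, 1.61-fold). Lrp4 was not called under the deposited scaling (adjusted p = 0.117) or without rat 1, 4 or 7 (adjusted p up to 0.0835). In proximal direction the largest were Daam2, a formin that binds Dishevelled (-1.46, 2.76-fold), Gpc3, a glypican (-1.24, 2.36-fold), Znrf3, the ubiquitin ligase that removes Frizzled from the cell surface (-0.67, 1.59-fold), and Tle2, a co-repressor that binds Tcf factors (-0.62, 1.53-fold). The distal mean of Gpc3, 5.47, lay below the filter level of 5.54, so it was tested through its proximal level and the size of its fold is uncertain. The fold of Daam2 is uncertain too, since its distal arrays split. Rats 4, 5 and 8 read 4.68, 4.68 and 4.79, below the filter level, and the other distal arrays 6.19 to 7.17. Over the alternatives its difference ran from -1.91 to -0.93. Apart from Lrp4, each of these genes was called under every alternative in which it was tested.

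Znrf3 lay at 7.59, 8.14 and 8.53 in proximal and at 7.07, 7.41 and 7.85 in distal arrays, with 8 of 9 rats higher in the proximal array (adjusted p = 0.000374 by limma). Axin2, a target of the pathway that feeds back on it, lay at 8.08, 8.43 and 8.59 in proximal and at 7.80, 8.43 and 8.78 in distal arrays. Its difference of 0.05 ± 0.12 was not called (adjusted p = 0.793 by limma), and it was higher in the distal array in 3 of 9 rats. Rnf43, the relative of Znrf3, had no probe set named here.

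Of 20 symbols listed as targets of β-catenin in intestinal crypts, of which Troy is another name of Tnfrsf19, 11 were measured. Of these, limma called 3 as higher in distal and 4 as higher in proximal colon, beside 16.2% and 14.5% of all tested genes. Lgr5, the stem cell factor Ascl2 (0.65, 1.57-fold) and the crypt receptor Ephb3 (0.54, 1.45-fold) were called as higher in distal colon. The adhesion receptor Cd44 (-1.70, 3.25-fold), Znrf3, Smoc2 (-0.55, 1.46-fold) and the cyclin Ccnd1 (-0.24, 1.18-fold) were called as higher in proximal colon. Cd44 lay at 8.14, 8.81 and 9.94 in proximal and at 6.57, 7.07 and 7.67 in distal arrays, without overlap (adjusted p = 2.91e-06 by limma). Smoc2 and Ccnd1 were near the threshold (adjusted p = 0.0437 and 0.0478 by limma), and the other tested probe sets of Ccnd1 differed by -0.12 and 0.02. Leaving out rat 1, 2, 5, 7, 8 or 10 brought the count higher in proximal colon from 4 to 2. No share over all genes is given for those fits, so the fall is not a result about the targets. Smoc2 had adjusted p-values up to 0.104 and Ccnd1 up to 0.114 on leaving out a rat. Smoc2 also lost its call with no filter (0.0561) and without the 3 arrays that were high in smooth muscle markers (0.0623), and Ccnd1 with no filter (0.0637) and without the proximal arrays of rats 3 and 6 (0.129). By contrast, Cd44, Ascl2 and Ephb3 were called under all 17 alternatives.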

How the data were processed

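Scraped mucosa of proximal and distal colon from 9 rats was hybridised to 18 one-colour Affymetrix rat arrays. The deposited intensity values are MAS5 signals, made by the authors per the labels and the submitters' processing notes with no scaling target given in the sources used here. The trimmed mean (2% cut from each end) of the arrays ran from 210.3 to 341.2, so they had not been brought to a common level. No 2 arrays shared more than 0.00643% of values (153 pairs).

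Symbols came from the platform annotation, which named 20826 probe sets with 1 symbol; all 74 member probe sets keep their symbol in the GRCr8 gene table. After adding 16, log2 values of the deposited intensities were quantile normalized, the dimmest 30% of probe sets by mean over all arrays (below 5.54) were left out along with 57 controls, and limma 3.58.1 (lmFit, eBayes with trend, R 4.3.3) tested distal minus proximal over 21729 probe sets, two-sided, with no block. The fit was tested on simulated data. Tables and correlations used Python 3.11.15, pandas 2.3.3, numpy 2.4.6 and scipy 1.17.1, and figures matplotlib 3.10.9. For genes outside the member rule, the tested probe set with the highest mean stood for the gene. The number of arrays limits the precision. The p-values of this fit rest on the spread of arrays within a region. They treat the arrays of the same rat as independent and do not measure the spread of the paired differences.

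Values by region are given for called member probe sets of at least 1.3-fold, for members whose probe sets disagree, and for Ctnnb1, Apc, Tcf7l2, Lrp5, Lrp6, Wnt5a, Wnt2b, Rspo3, Sfrp1, Sfrp2, Dkk3 and Wls. Of the other pathway genes and the targets, up to 4 called genes in each direction with the largest difference were named, plus Axin2, Lgr5, Rnf43 and Znrf3. Wif1, Wnt4, Tcf7, Lef1 and Tcf7l1 were described further after their values were seen. The members, lists and alternatives were chosen with earlier results of these data known.

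Rat numbers in the titles pair the regions. Deviations from the region mean of the 2 arrays of a rat correlated at 0.000945 to 0.569 (median 0.226, 6 of 9 above 0.1), beside a median of -0.03 for arrays of different rats. Alternatives were the deposited scaling, a pseudocount of 1 or 64, no filter or a 50% filter, rat as a block, each rat left out, the proximal arrays of rats 3 and 6 left out, the 3 arrays of highest smooth muscle level left out and, for gene lists, the mean of a gene's probe sets.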

Additional observations from a re-analysis of the deposited data

Results flagged for a closer look

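In 13 of 84 sets of 9 values (a tested member probe set in a region), the highest or lowest array lay far from the others by Dixon's criterion. For a single set that criterion flags about 1 in 20 by chance. The sets share the same 18 arrays and are not independent, so the count cannot be judged against that rate. Proximal rat 3 was the distant array in 10 of the 13. It was the highest for Dkk3 (9.50, next 7.52), Wls (8.79, next 7.96), Fzd4 (7.90, next 7.03), Porcn (7.58, next 6.89), Fzd2 (7.58, next 6.02), Tcf7l1 (7.56, next 6.85) and Sfrp5 (7.08, next 6.19), all as log2 of signal plus 16. It was the lowest for Axin1 (8.90, next 9.31), Tcf7l2 probe set 1379815_at (8.35, next 8.82) and Gsk3b (6.84, next 7.39). This array also had the highest smooth muscle level of all 18, and the part of that in these values was not tested. Over the 42 tested members it was the highest proximal array in 10 and the lowest in 13. How often it was distant, highest or lowest over all probe sets is not given here, so these counts are not a result about the members.

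The other distant arrays were all distal. Distal rat 3 was the lowest for Apc probe set 1387837_at (6.20, next 7.39), distal rat 10 the lowest for Fzd1 (7.58, next 8.62) and distal rat 2 the lowest for Wnt2 (5.53, next 5.99).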

How the results depend on the processing

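Under the alternatives, both Sfrp2 probe sets, Sfrp5 and 1 probe set each of Lrp5, Dvl1 and Ctnnb1 were called wherever they were tested. Sfrp5 was tested in 16 of the 17 alternatives. It passed the main filter through its proximal level, as its distal mean of 5.21 lay below the filter level of 5.54. The deposited scaling moved the members called as higher in distal colon from 7 to 3 (both Sfrp2 probe sets and Dvl1 1369997_at) and the other pathway genes from 15 to 6. It turned the sign of differences that were not called: Wnt6 (-0.077), Wnt9a (-0.061), Fzd2 (-0.082), Fzd4 (-0.11), Gsk3b (-0.088) and a Tcf7l2 probe set (1392592_at, -0.019). Without the proximal arrays of rats 3 and 6, Gsk3b was at -0.076. Leaving out each rat in turn gave 5 to 8 members called as higher in distal and 3 to 5 as higher in proximal colon, 10 to 14 other pathway genes and 2 to 4 targets higher in proximal colon. The shares of all probe sets and genes called in those fits are not given here, so these counts stand without a background. Over the same fits, uncalled differences changed sign for Wnt6 (-0.076 to 0.15), Wnt7a (-0.057 to 0.053), Wnt9a (-0.0048 to 0.18), Fzd2 (-0.023 to 0.20), Fzd4 (-0.039 to 0.070), Dvl3 (-0.13 to 0.11) and Gsk3b (-0.054 to 0.071). The cause of these changes was not tested.

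With rat as a block, 9 members were called as higher in distal and 5 as higher in proximal colon, 19 and 19 other pathway genes and 3 and 4 targets. The shares of all probe sets and genes called in that fit are not given here, so the rise is not a result about the members. The block added calls for Lrp6, Ctnnb1 1369733_at and Tcf7l2 1377156_at and changed no other call of a member. Depth is not defined for arrays: 32 of 74 member probe sets lay too near the dim end to be tested. Without the filter 3 of them were called, with no share over all dim probe sets given beside that count.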
